A study of Mus musculus with 50 samples.

Results

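Genes that mark Kupffer cells, other macrophages and further leukocytes were followed in 50 liver RNA-seq libraries of male mice. The list held 39 gene symbols, chosen by name as macrophage, antigen-presenting and lymphoid markers, and each symbol was matched to the Ensembl identifiers of the expression table through the GENCODE M21 annotation. Of the 39, 36 were among the 12180 genes of the table. Cd3e and Nkg7, markers of T and NK cells, were not among them, and the annotation holds no gene named Slc40a1l. Of the 36, 35 had a mean value of at least 1 and were tested, and Ccl5 was described without a test.

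The mice came from a cross of C57BL/6J animals in which only chromosomes 4 and 6 could carry alleles of strain A/J. The labels call the animals F2 mice and the study's methods call the generation N2. Every animal was male, was fasted overnight before its liver was taken, and shared C57BL/6J alleles on all chromosomes other than 4 and 6. The labels call the animals adult, whereas the study's methods give an age of 5 weeks. The labels give 1 group of 50 libraries with no treatment and no control, and genotypes were not used here. The titles hold 48 distinct animal numbers, since 2 numbers occur on 2 libraries each, so livers are counted by library below and it is not shown that each came from a separate mouse. The p-values measure the spread between these libraries.

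Kupffer cells are the resident macrophages of the liver. They line the sinusoids, where they take up particles, microbes and ageing red cells from the portal blood, and they are the main source of the complement component C1q in this organ. Peptide presentation on MHC class II molecules is shared by macrophages, dendritic cells and B cells, so these genes do not mark a single cell type.

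Values are given in the unit of the deposited table, which is CPM of a library size that was adjusted between libraries. Reads counted on genes ranged from 9430126 in library 3 to 24355042 in library 20, with a median of 1.08e+07. A single read corresponded to a value between 0.0317 and 0.0864, and the value of 3 reads, taken as the floor, ran from 0.0951 to 0.259. All 36 genes lay above 3 reads in every library. The lowest count was that of Ccl5, a chemokine of T and NK cells, with 4 reads. In 1 of the 36 genes, Ccl5, over 50% of the variance was counting error (68.1%), whereas for Marco, a scavenger receptor of Kupffer cells, it was 1.95%. Together the 36 genes held 0.116% ± 0.0147 (SD, n = 50) of the gene values, a summed value of 915 ± 104 (SD, n = 50). In bulk tissue, fewer cells of a type and less RNA per cell cannot be told apart.

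Levels were compared between genes per kilobase of annotated transcript. The highest level was that of Cd5l, a protein secreted by tissue macrophages, at 49.7 ± 8.79 per kb (SD, n = 50). The C1q chains C1qb and C1qa followed at 43.6 ± 6.03 and 40.3 ± 6.22 per kb, then lysozyme (Lyz2) at 40.2 ± 7.42 and the Kupffer cell lectin Clec4f at 37.9 ± 4.97 per kb. Cd5l differed from C1qb by less than its own SD between livers but by slightly more than that of C1qb, and the other neighbours in the order differed by less than either SD. The 3 lowest were lymphocyte and pan-leukocyte genes. Cd79b, a chain of the B cell receptor, had 1.11 ± 0.407 per kb, Ptprc, the phosphatase CD45 carried by all leukocytes, 1.41 ± 0.284, and Ccl5 1.57 ± 0.542 per kb. The Kupffer cell markers did not all stand high, since Cd163 and Timd4 had 3.66 ± 1.06 and 3.47 ± 0.648 per kb, and the pan-leukocyte genes did not all stand low, since Lcp1 had 20.4 ± 2.34.

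**Figure D1:**
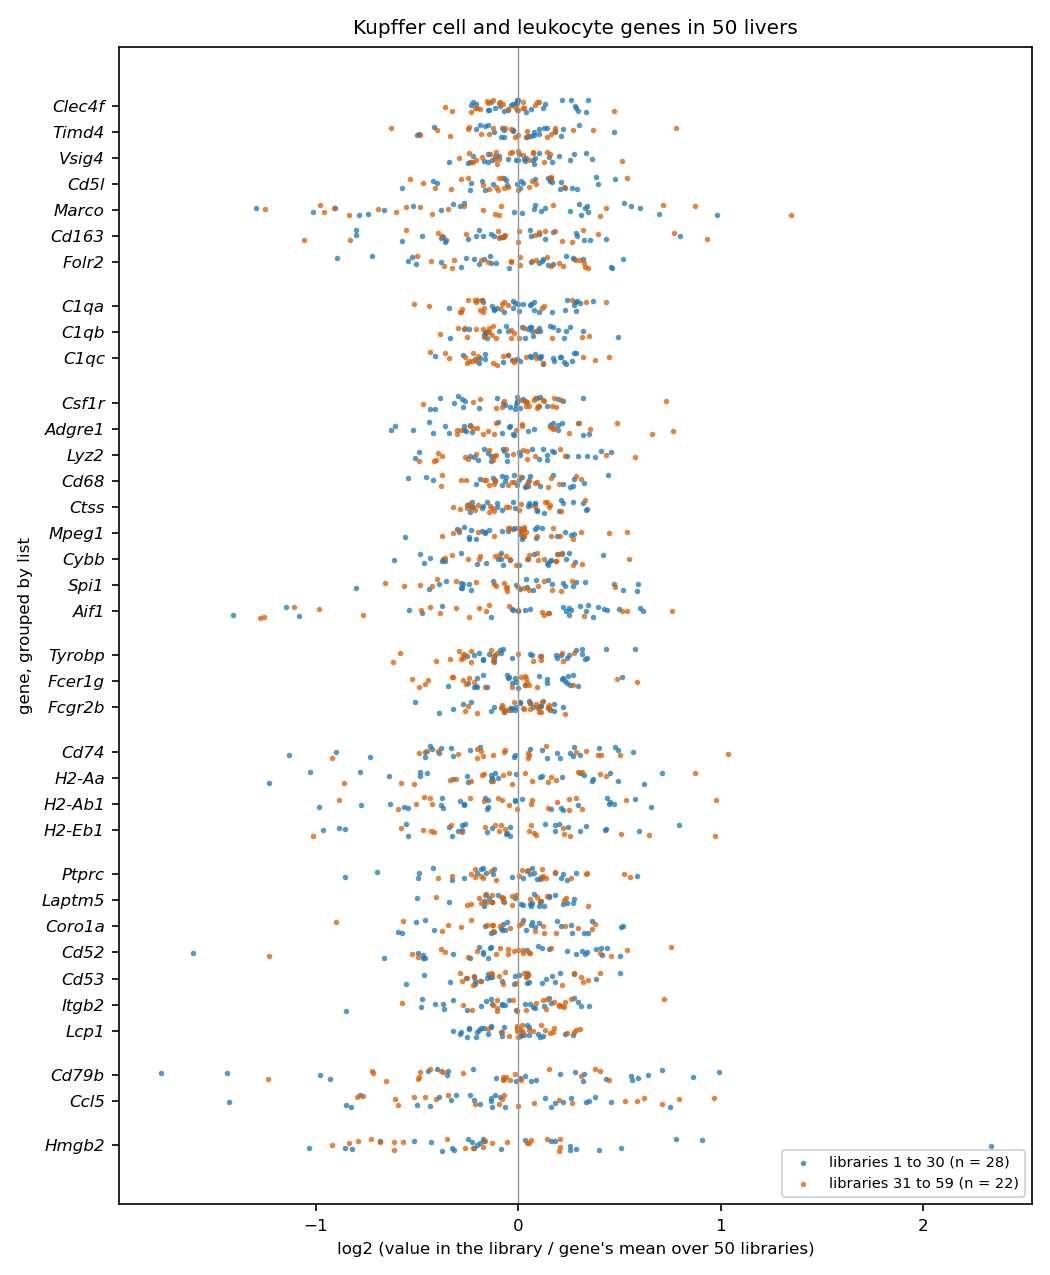
Value of each of 36 genes in 50 livers, as log2 of the value over the gene's mean (x axis), with genes grouped by list (y axis). Each point is 1 library, blue for the 28 libraries numbered 1 to 30 and orange for the 22 numbered 31 to 59. Marco, the MHC class II genes and the lymphocyte genes spread widely, and 1 library lies far to the right for Hmgb2.

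The 7 Kupffer cell identity genes did not vary alike. Clec4f (ENSMUSG00000014542, chr6:83644542-83656187, minus strand, GRCm38), a galactose-binding lectin made by Kupffer cells, had a lowest value of 72.8, a median of 92.3 and a highest of 130, a range of 1.79-fold. Vsig4, a receptor for complement fragments, ranged from 24 to 43.5 around a median of 30.3, and Cd5l from 68.0 to 147 around 99.3. Timd4, which binds phosphatidylserine on dying cells, ranged from 4.88 to 12.9 around 7.43. Library 47 held the highest Clec4f, Vsig4 and Timd4, whereas library 34 held the highest Cd5l. Libraries 19, 31, 35 and 4 were among the 5 lowest for both Timd4 and Cd5l.

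Marco (ENSMUSG00000026390, chr1:120474538-120505024, minus strand), which binds bacteria and other particles, varied most among them. Its value was 7.32 at the lowest, 16.7 at the median and 45.6 at the highest, a range of 6.23-fold with a coefficient of variation of 44%. Library 34 was highest, followed by library 6 with 35.4 and library 57 with 32.9, and libraries 4 and 31 were lowest with 7.32 and 7.53. Cd163 (ENSMUSG00000008845, chr6:124304656-124330527, plus strand), the receptor for haemoglobin bound to haptoglobin, ranged from 7.73 over a median of 15.4 to 30.8. Its order of livers was unlike that of Marco: library 34, the highest for Marco, was the lowest for Cd163, and library 57 was the next lowest with 9.06. Library 47 was highest for Cd163, with library 30 at 28.1 and library 42 at 27.5. Folr2, a folate receptor of resident macrophages, ranged from 4.61 in library 22 to 12.2 in library 11 and shares exonic bases with Gm10602 on the opposite strand, so its level is less certain. The strand setting of the counting is not given in the sources used here.

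The 3 C1q chains, which assemble into the recognition molecule of the classical complement pathway, lie side by side on chromosome 4. C1qa (ENSMUSG00000036887, chr4:136895917-136898803, minus strand) had a lowest value of 29.3, a median of 40.8 and a highest of 56.6. C1qb ranged from 36.3 to 66.8 around 46.5, and C1qc from 29.6 to 54.7 around 39.4. Libraries 7, 21, 44 and 47 were among the 5 highest for each chain, and libraries 19 and 50 among the 5 lowest for each.

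Of the 9 general macrophage genes, Csf1r, the receptor for the growth factor that maintains macrophages, ranged from 40.4 to 92.9 around a median of 56.4. Library 47 stood above the next library, 11, which had 69.9. Exons of Csf1r overlap Hmgxb3 on the opposite strand. Lyz2 ranged from 37.2 to 78.9, Mpeg1, a pore-forming protein of phagosomes, from 35 to 74.8, and the cysteine protease Ctss from 26.8 to 42.4. Adgre1, the F4/80 antigen, ranged from 10.9 to 28.6, Cybb, a subunit of the phagocyte NADPH oxidase, from 9.41 to 21.1, and the lysosomal protein Cd68 from 5.64 to 11.2. The least abundant were Spi1, the myeloid transcription factor PU.1, from 2.40 to 6.30, and the actin-binding Aif1, from 1.08 to 4.87. Library 34 was highest for Lyz2, Mpeg1, Adgre1 and Aif1, and library 47 for Csf1r and Cybb. Library 4 was lowest for Mpeg1, Cybb and Cd68.

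Tyrobp (ENSMUSG00000030579, chr7:30413760-30417585, plus strand) and Fcer1g are adaptors that carry the signal of activating receptors, and Fcgr2b is the inhibitory receptor for IgG. Tyrobp ranged from 7.52 over a median of 10.9 to 17.2, and Fcer1g from 4.63 over 6.59 to 9.98. Fcgr2b, which liver sinusoidal endothelial cells also carry, was the least variable of the 36 genes, from 29.9 over 43.1 to 49.98 with a coefficient of variation of 10.7%. Library 30 was lowest for Fcgr2b. Exons of Fcgr2b overlap Gm38204 on the opposite strand.

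The MHC class II genes encode the invariant chain (Cd74), the alpha chain H2-Aa and the beta chains H2-Ab1 and H2-Eb1. Cd74 (ENSMUSG00000024610) had a lowest value of 17.2, a median of 36.6 and a highest of 77.4. H2-Aa (ENSMUSG00000036594) ranged from 7.77 over 17.2 to 33.5, H2-Ab1 (ENSMUSG00000073421) from 6.88 over 13 to 26.8, and H2-Eb1 (ENSMUSG00000060586) from 6.02 over 11.6 to 23.8. Library 47 was highest for all 4, and libraries 27, 29, 30 and 59 were the 4 lowest for all 4. Each gene therefore covered close to a 4-fold range or more, from 3.90-fold for H2-Ab1 to 4.51-fold for Cd74, against 1.93-fold for C1qa.

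Pan-leukocyte genes stayed within narrower ranges where they were abundant. Lcp1 (ENSMUSG00000021998, chr14:75131101-75230842, plus strand), an actin-bundling protein of white blood cells, ranged from 62.6 over 78.5 to 96.7, and the lysosomal protein Laptm5 from 12.2 over 17.1 to 22. Lcp1 was lowest in library 18 and highest in library 33, and it overlaps Gm15628 and Gm15629 on the opposite strand. Ptprc ranged from 3.67 to 9.98, the tetraspanin Cd53 from 3.97 to 8.26 and the integrin chain Itgb2 from 2.91 to 8.64. Coro1a, an actin regulator of leukocytes, ranged from 2.29 to 6.13 and Cd52, a small surface glycoprotein, from 1.04 to 5.32. Coro1a overlaps Bola2 and Cd52 overlaps Crybg2, both on the opposite strand.

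Of the lymphoid genes, Cd79b ranged from 0.389 in library 14 to 2.63 in library 21, and Ccl5 from 0.311 in library 14 to 1.64 in library 44. Hmgb2 (ENSMUSG00000054717, chr8:57511907-57515999, plus strand), a chromatin protein of dividing cells that is not restricted to leukocytes, ranged from 2.1 over 3.80 to 21.7. Library 15 alone held the value of 21.7, and the next was library 24 with 8.07. The proliferation gene Top2a, a topoisomerase, was also highest in library 15, at 3.20.

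Libraries tended to be high or low for many of these genes at once. Library 47 was among the 5 highest libraries for 26 of 36 genes, library 11 for 16, library 7 for 14, library 34 for 12 and library 21 for 11. Library 29 was among the 5 lowest for 15 of 36, library 19 for 14, library 4 for 13 and libraries 13 and 35 for 11 each. The same counts were not made over all genes of the table, so they are not shown to be particular to these genes. Library 47 was also above the median in some lists of other cells. Its summed endothelial value was 337 against a median of 263, and its summed stellate and fibroblast value was 189 against 146. Its summed T and NK cell value was 2.37 against 1.20, and its summed MHC class I value was 2586 against 2118. In other lists it was below the median, with 21.9 against 30.3 for cholangiocyte genes and 5.04 against 7.04 for B and plasma cell genes. It was highest for the hepatocyte gene Cps1 at 8022, whereas its summed hepatocyte value of 80416 was below the median of 95327. The part of other cells in its high values was not tested. The summed Kupffer cell identity value ran from 212 in library 19 over a median of 270 to 376 in library 47, and the summed MHC class II value from 39.1 in library 30 over 78.9 to 162 in library 47. The plot of summed values by library shows that the classes did not rank the livers alike. The summed C1q value was highest in library 7 with 169 and lowest in library 50 with 96.7, the pan-leukocyte sum was highest in library 12 with 142 and lowest in library 18 with 98.6, and the lymphoid sum ran from 0.7 in library 14 to 4.03 in library 21. Lcp1, with a mean of 78.2, made up most of the pan-leukocyte sum, whose mean was 120.7, and library 18 was lowest for both.

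**Figure D2:**
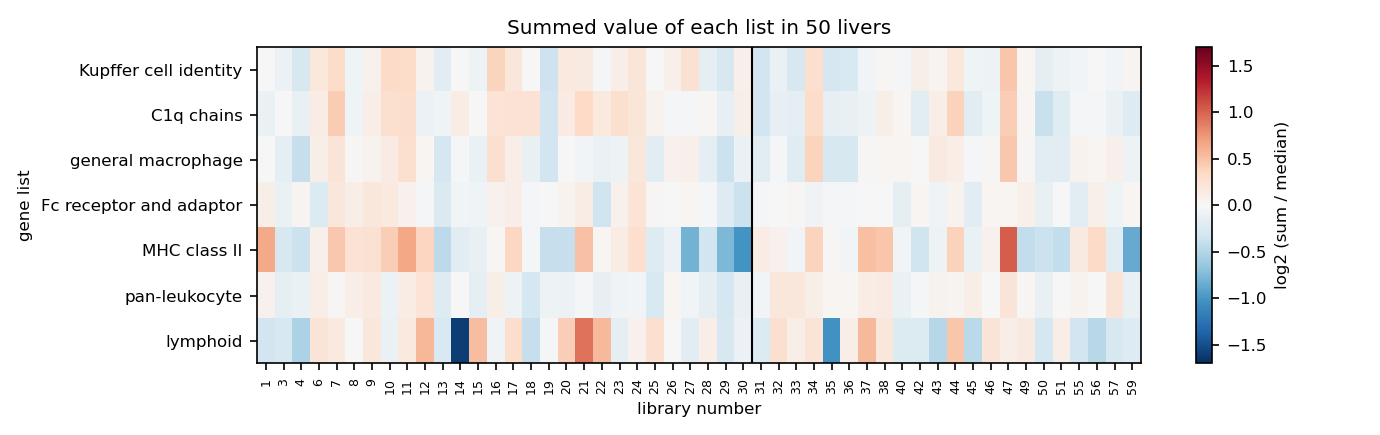
Summed value of the genes of 7 lists (y axis) in each of 50 livers (x axis, library number), coloured by log2 of the sum over its median. The vertical line separates libraries 1 to 30 from libraries 31 to 59. Library 47 is high for the Kupffer cell, macrophage and MHC class II lists, and libraries 27, 29, 30 and 59 are low for MHC class II.

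The spread of each gene was set beside that of the 200 genes nearest to it in mean value. Of the 36 genes, 29 had a coefficient of variation above the median of their neighbours, and 7 lay above 90% of them. Those 7 were Marco at percentile 98.5, Hmgb2 at 99, Cd74 at 97.5, Cd163 and H2-Eb1 at 96, H2-Ab1 at 95 and H2-Aa at 94.5. The rank of Hmgb2 rests on library 15, without which its coefficient of variation was 31.6% in place of 65.0% and its percentile 89.5. The other 6 stayed above 90% of their neighbours with any 1 library left out. No gene lay below 10% of its neighbours. Over all 36 the median coefficient of variation was 18.6%, against 17.2% over the 12180 genes of the table. Only chromosomes 4 and 6 segregate in the cross. The 7 genes of the list on them, Clec4f, Cd163, C1qa, C1qb, C1qc, Laptm5 and Cd52, had a median percentile of 67, against 72.5 for the 29 genes on other chromosomes.

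Many of the genes moved together across livers, but not all, since r over their pairs ran from -0.417 to 0.958. The median Pearson r over the 630 pairs of the 36 genes was 0.344, against -0.00200 over the 65328165 pairs of all genes tested, of which 5% lay above 0.408. Within lists the median r was 0.943 for MHC class II, 0.854 for the C1q chains, 0.451 for general macrophage genes, 0.399 for Kupffer cell identity genes and 0.354 for pan-leukocyte genes. Some medians between lists were as high. Kupffer cell identity genes had 0.5075 with C1q chains and 0.437 with general macrophage genes, but 0.0391 to 0.3525 with the other lists. Pan-leukocyte genes had 0.392 with general macrophage genes. The median was -0.0636 for the Fc receptor and adaptor list, in which Fcgr2b moved apart from both adaptors. Cd163 had a median r of -0.0120 with the other genes, Fcgr2b of 0.0277, Lcp1 of 0.0400 and Hmgb2 of 0.0471. These 4 genes form the pale bands in the plot of correlations. All values come from the same 50 libraries, and no p was computed for these medians. Transcript length, described below for the sets of library numbers, was not taken into account in these medians. Its part in them was not tested.

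**Figure D3:**
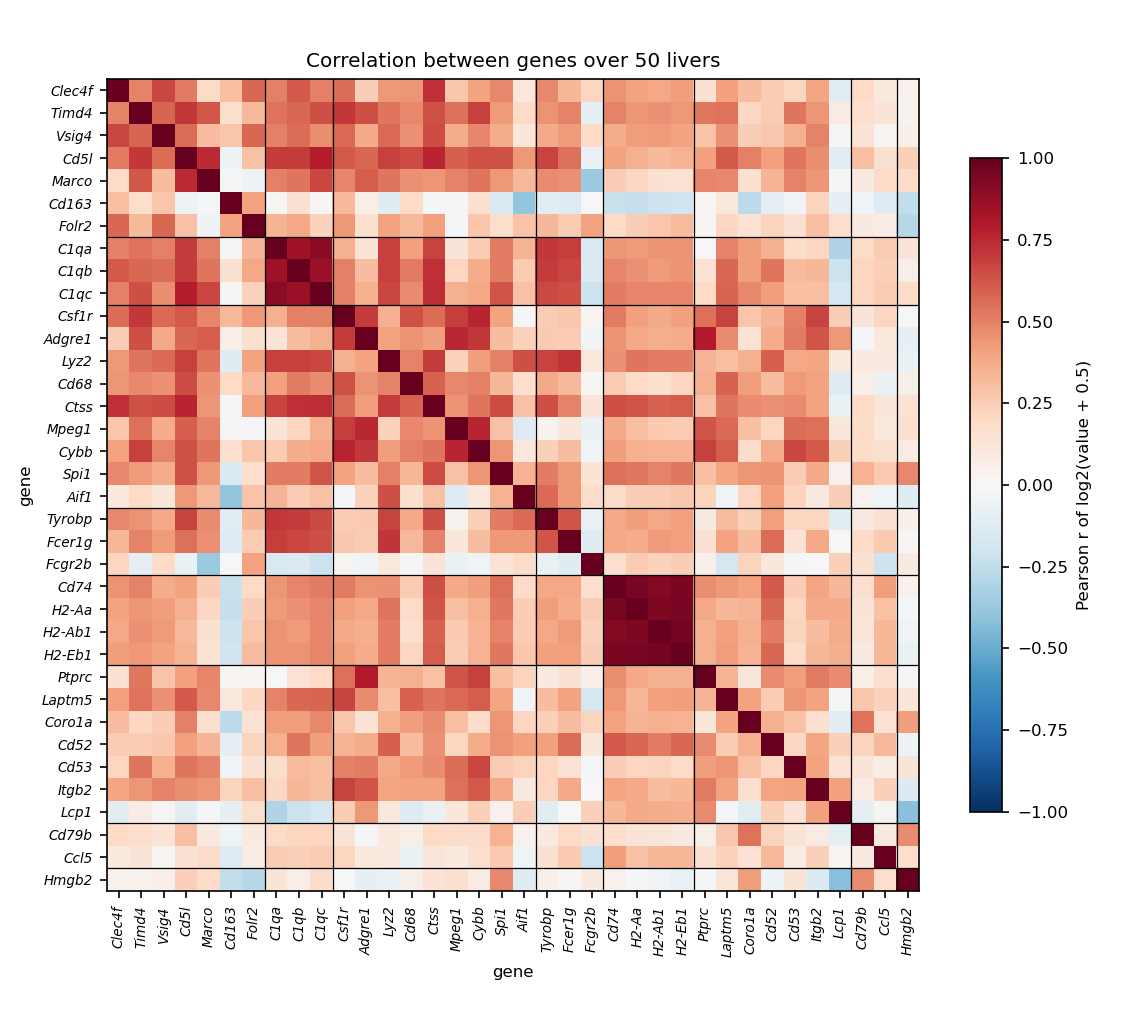
Pearson r of log2(value + 0.5) over 50 livers for each pair of 36 genes, in the same order on both axes, from -1 in blue to 1 in red, with lines between the lists. The MHC class II block has a median r of 0.943 and the C1q block of 0.854, and Cd163, Fcgr2b, Lcp1 and Hmgb2 appear as pale bands.

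Of 32 gene pairs listed as a family, 29 could be computed, since Cd3e and Nkg7 were missing from the other 3. In 21 of the 29 the adjusted p of Pearson's r was under 0.05, each with a positive r, and the same count held for Spearman's rho. Of the 21, 5 had an r below 0.408, the value that 5% of all pairs of genes tested exceed, so a pass is not particular to these genes. A further 5% of all pairs lay below -0.397, and the share of all pairs that would pass this test was not computed. The smallest p that 100000 permutations can give is 1e-05. The pair of C1qa and C1qc had r = 0.904 (p = 1e-05, adjusted p = 2.9e-05) and rho = 0.892 (p = 1e-05). Leaving out the pair of libraries farthest from the median of C1qa gave r = 0.897. Within libraries 1 to 30 r was 0.875, and within libraries 31 to 59 it was 0.920. H2-Aa and H2-Eb1 had r = 0.951 (p = 1e-05, adjusted p = 2.9e-05) and rho = 0.949 (p = 1e-05), with 0.943 without the 2 farthest libraries and 0.957 within each set. H2-Aa and H2-Ab1, the partner chains of 1 class II molecule, had a lower r of 0.933. The pairs within the C1q list and within the MHC class II list had the highest r of the 29, from 0.846 to 0.951.

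Pairs of Kupffer cell identity genes had lower r than these. Clec4f and Vsig4 had r = 0.668 (p = 1e-05, adjusted p = 2.9e-05) and rho = 0.578 (p = 2e-05), with 0.558 without the 2 farthest libraries and 0.655 and 0.672 within the sets. Clec4f and Cd5l had r = 0.522 (p = 0.00015, adjusted p = 0.000335) and rho = 0.536 (p = 0.00012), with 0.5 without the 2 farthest. Within libraries 1 to 30 that r was 0.689, and within libraries 31 to 59 it was 0.236 with an adjusted p of 0.377. Clec4f and Marco had r = 0.192 (p = 0.182, adjusted p = 0.221) and rho = 0.202 (p = 0.159), and did not pass, with 0.0960 without the 2 farthest and 0.247 and 0.0735 within the sets. Marco did not stand apart from all genes of its list, since outside the family of pairs, as a description without a test, it had r = 0.743 with Cd5l, the highest among the Kupffer cell identity genes, and r = 0.624 with Timd4. Cd5l and Cd163 had r = -0.0537 (p = 0.709, adjusted p = 0.735) and rho = -0.000624 (p = 0.997), with 0.0803 without the 2 farthest and 0.0164 and -0.0953 within the sets. Some Kupffer cell genes thus moved together, and for other pairs of them no relation passed the test.

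Clec4f and H2-Aa had r = 0.400 (p = 0.00438, adjusted p = 0.00635) and rho = 0.451 (p = 0.00116). Its r rests in part on 2 libraries: without those farthest from the median of Clec4f r was 0.275, with an adjusted p of 0.0792, while rho was 0.382 and passed, with an adjusted p of 0.0150. Within the sets r was 0.490 and 0.361, the latter with an adjusted p of 0.170. Without library 47, the highest for both genes, r was 0.319 and passed, with an adjusted p of 0.0355. H2-Aa and Ciita, the activator of MHC class II transcription, had r = 0.402 (p = 0.00364, adjusted p = 0.00598) and rho = 0.419 (p = 0.00273), with 0.407 without the 2 farthest. Within libraries 1 to 30 r was 0.761, whereas within libraries 31 to 59 it was -0.0519 with an adjusted p of 0.875. The difference between the sets was not tested, and Ciita had a mean value of 0.836, below the limit for testing. Clec4f and the hepatocyte gene Alb, which encodes albumin, had r = -0.0399 (p = 0.783, adjusted p = 0.783) and rho = 0.0680 (p = 0.637), with 0.0740 without the 2 farthest and -0.128 and 0.0318 within the sets. Hmgb2 and Top2a had r = 0.599 (p = 1e-05, adjusted p = 2.9e-05) and rho = 0.438 (p = 0.00161), with 0.425 without the 2 farthest, 0.449 without library 15, and 0.741 and 0.352 within the sets, the latter with an adjusted p of 0.172. Top2a, with a mean value of 0.978, was also below the limit for testing.

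For 5 anchor genes and for Ccl5, which took the place of the missing Cd3e, the 6 genes of the table with the highest r over the 50 livers were named. No p was computed for these r, and transcript length was not taken into account. Nearest to Clec4f were Ctss (r = 0.733), Vsig4, Ly86, C1qb, Neurl3 and H2-D1 (r = 0.577). Nearest to C1qa were its partner chains, H2-D1, Cfp, Tyrobp and Cyba (r = 0.709), where Cfp encodes properdin and Cyba a subunit of the phagocyte oxidase. H2-Aa was nearest to the other 3 MHC class II genes, then H2-DMa (r = 0.703) and H2-DMb1, which load peptides on class II molecules, and Ly6a. Ptprc was nearest to Adgre1 (r = 0.790), Itgal, Dock10, Cybb, Cd44 and Fyb (r = 0.680). Hmgb2 was nearest to Reep4 (r = 0.800), Vps37b, Ccdc120, Ppp1cc, Clec14a and H3f3b, none of which is a listed marker. Ccl5 was nearest to Dusp7 (r = 0.569), Repin1, Cldn5, Tfip11, Fgb and Thap7.

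Promoter sequence was read for H2-Aa and H2-Eb1 because the MHC class II genes had the highest median r of the lists. H2-Ab1 and Cd74 had no entry in the promoter table. For 27 of the 39 listed genes 31 promoters were found among 32851 in the RefSeq table of GRCm38.p6. In the 250 bases before the start, the letters ATTGG, or CCAAT on the other strand, were present in 12 of the 31 and in 33.8% of all promoters. The longer CTGATTGG, or CCAATCAG on the other strand, which contains the former, was present in 3 of the 31, namely those of H2-Aa, H2-Eb1 and Hmgb2, and in 3.83% of all promoters. GAGGAA, or TTCCTC on the other strand, the core letters bound by PU.1, was present in 13 of the 31 and in 23.3% of all promoters. The 150 bases before the start are shown for H2-Aa (chr17:34287824-34287973, minus strand) and H2-Eb1 (chr17:34305717-34305866, plus strand), 5′ to 3′, with each ATTGG or CCAAT in capitals. ATTGG begins 48 bases before the start in H2-Aa and 59 bases before it in H2-Eb1, where CCAAT also begins 35 bases before it. A match is a description of these letters and not of binding.
H2-Aa: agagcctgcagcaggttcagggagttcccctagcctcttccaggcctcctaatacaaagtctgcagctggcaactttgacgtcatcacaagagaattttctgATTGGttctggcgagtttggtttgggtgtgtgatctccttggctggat
H2-Eb1: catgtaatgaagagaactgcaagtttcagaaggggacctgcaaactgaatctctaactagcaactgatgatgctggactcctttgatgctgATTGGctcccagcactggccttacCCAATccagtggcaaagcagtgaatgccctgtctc

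Titles carry an animal number, whose meaning is not given. Its relation to expression was fitted with limma over 11431 genes as a log2 slope per 100 animal numbers, with Benjamini-Hochberg adjustment over all of them. Among the 35 genes tested, all 4 MHC class II genes and Lcp1 fell with animal number and Hmgb2 rose. Those 5 falling genes of 35 stand beside 6.76% of all genes tested, and the 1 rising gene beside 7.48%. The 4 MHC class II genes had r of 0.916 to 0.958 with each other, so their 4 calls are not independent. None of the 7 Kupffer cell identity, 3 C1q, 9 general macrophage or 3 Fc receptor and adaptor genes passed in limma. At an unadjusted p under 0.05 these lists had 1, 0, 1 and 0 genes, beside 28.98% of all genes tested, and edgeR and DESeq2 also called 0 in each. The median slope was 0.05 for Kupffer cell identity genes and -0.35 for MHC class II, against -0.00115 over all genes tested.

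H2-Aa fell by 0.36 per 100 animal numbers on the log2 scale (SE 0.104, adjusted p = 0.0143), and 17 of the 25 libraries with the higher animal numbers lay below its median. H2-Ab1 fell by 0.35 (SE 0.0994, adjusted p = 0.0138) with 16 of 25 below, and H2-Eb1 fell by 0.35 (SE 0.102, adjusted p = 0.0165) with 15 of 25 below. Cd74 fell by 0.31 (SE 0.105, adjusted p = 0.0404) with 14 of 25 below. The low end of all 4 genes was held by libraries with the highest animal numbers. In the 6 libraries with animal numbers above 270, numbered 27, 28, 29, 30, 57 and 59, Cd74 ranged from 17.2 to 32.7 with a median of 21.4, against 26.8 to 77.4 with a median of 39 in the other 44. H2-Aa ranged from 7.77 to 15.6 in those 6 and from 11.8 to 33.5 in the others, so the ranges overlapped. The summed value of the 2 dendritic cell genes in the table, Siglech and Ciita, had a median of 1.49 over 50 livers. In those 6 libraries, in the order given, it was 1.26, 1.22, 1.28, 0.605, 1.83 and 1.19, the lowest of all being library 30. Both genes had a mean below the limit for testing, and the relation of their sum to the MHC class II genes was not tested.

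The calls of the MHC class II genes depended on those 6 libraries. Without them none of the 4 passed, and the slopes were smaller but still negative. The slopes were -0.06 for Cd74, -0.12 for H2-Aa, -0.17 for H2-Ab1 and -0.15 for H2-Eb1, with adjusted p of 0.784, 0.542, 0.354 and 0.428. This comparison was chosen after seeing the data. Those 6 libraries hold the lowest value of each gene, so a smaller slope without them was likely in advance. Cd74 was also past the threshold in only 41 of 50 fits that left out 1 library each. It was lost without library 1, 20, 25, 27, 28, 29, 30, 34 or 59, with an adjusted p of up to 0.107, and with edgeR its adjusted p was 0.0815. The other 3 passed in all 50 such fits and with edgeR and DESeq2. Within libraries 1 to 30 the slopes were -0.39 for Cd74, -0.46 for H2-Aa, -0.39 for H2-Ab1 and -0.40 for H2-Eb1, and within libraries 31 to 59 they were -0.20, -0.25, -0.31 and -0.30. Of the 4, H2-Aa passed within the first set, with an adjusted p of 0.0499, and none passed within the second, where 1 had an unadjusted p under 0.05. All 4 passed without the 4 libraries that share an animal number, as did Lcp1 and Hmgb2.

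**Figure D4:**
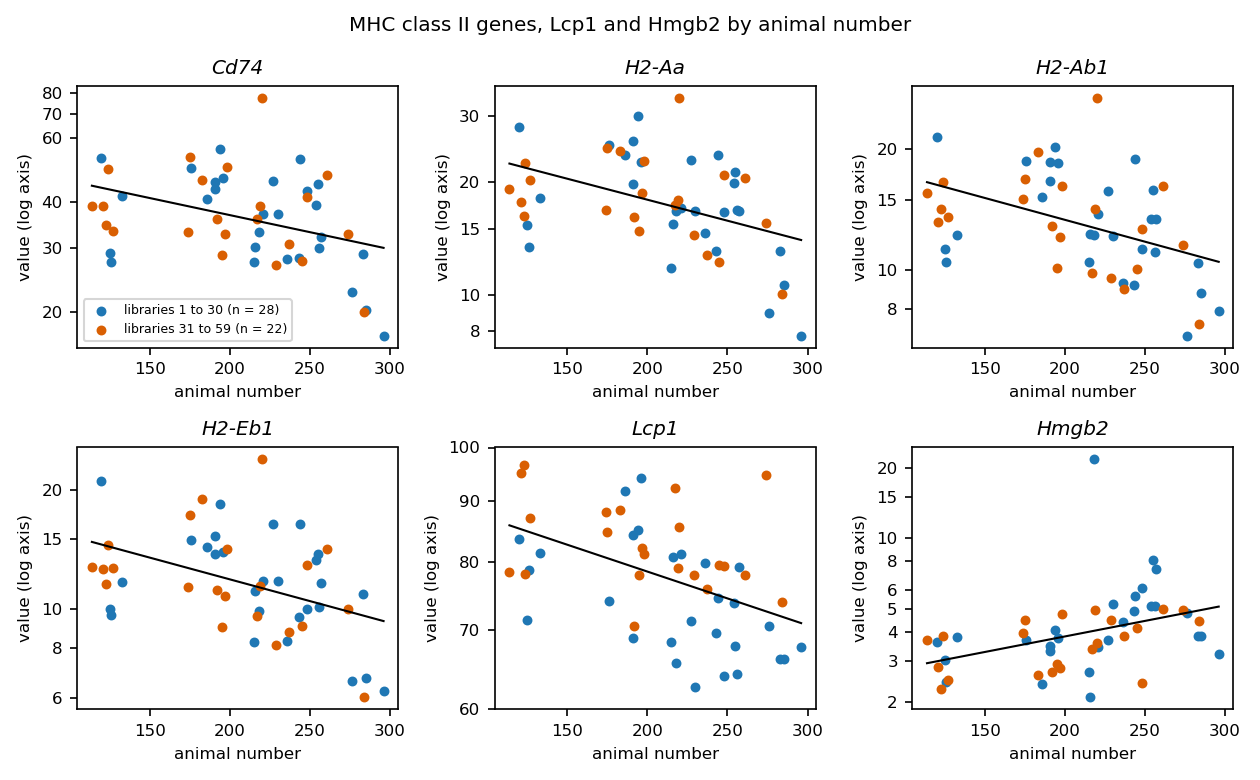
Value of 6 genes (y axis, log axis) against animal number (x axis) in 50 livers, blue for the 28 libraries numbered 1 to 30 and orange for the 22 numbered 31 to 59, with the fitted line. The 6 libraries above animal number 270 include the lowest values of the 4 MHC class II genes, and the single high Hmgb2 value of 21.7 is library 15.

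Lcp1 fell by 0.15 per 100 animal numbers (SE 0.0416, adjusted p = 0.0111), with 17 of 25 libraries of higher number below its median. It passed in all 50 fits without 1 library and also without the 6 libraries above 270 (slope -0.15, adjusted p = 0.0411). Hmgb2 rose by 0.39 (SE 0.128, adjusted p = 0.0315), with 20 of 25 libraries of higher number above its median, and its slope was 0.53 without those 6 libraries (adjusted p = 0.0278). Hmgb2 was lost without library 4, 33 or 35, with an adjusted p of up to 0.0615, and with edgeR its adjusted p was 0.0526. Aif1, Cd163, Cd52 and Ptprc did not pass, with adjusted p of 0.0729, 0.0802, 0.0751 and 0.0881. Leaving out 1 library brought each under the threshold: Aif1 without library 27, 31 or 57 (down to 0.00992), Cd163 without library 57 (0.0266), Cd52 without library 4 (0.0469) and Ptprc without library 35 or 57 (down to 0.0431).

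Animal number moved with the composition of the libraries. The share of gene values held by the 10 highest genes, Alb among them, had r = 0.633 (p = 1e-05, adjusted p = 2e-05) and rho = 0.709 (p = 1e-05) with animal number over 50 livers, the smallest p the permutations can give. That r was 0.678 without the 2 farthest libraries, 0.515 within libraries 1 to 30 and 0.716 within libraries 31 to 59. Counted reads, the other of 2 such relations computed, had r = 0.0744 (p = 0.609) and rho = 0.0647 (p = 0.653). After adjustment for that share limma called 0 of 11431 genes, with 1339 at an unadjusted p under 0.05, and the slope of H2-Aa was -0.31 with an adjusted p of 0.337. The share's part in the slopes of these genes cannot be told apart from that of animal number in this fit. In the table, 855 genes rose and 773 fell with the deposited scaling, against 559 and 1200 with plain CPM.

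Library numbers run through the animals from 1 to 30 and again from 31 to 59, and the 28 and 22 libraries of these sets were compared in the same way. Of the 35 genes, C1qa and Tyrobp were lower in libraries 31 to 59 and Lcp1 was higher. The 2 lower genes of 35 stand beside 6.46% of all genes tested, and the 1 higher gene beside 7.30%, so neither share exceeded that of the table. None of the 7 Kupffer cell identity genes passed in limma, edgeR or DESeq2, and 0 did at an unadjusted p under 0.05 in limma, beside 29.3% of all genes tested. In the table, 835 genes were higher and 739 lower, against 545 and 879 with plain CPM. Without library 44 they numbered 1297 and 1159, so the shares of the table rest in part on that library.

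Lcp1 had a mean of 74.5 ± 8.55 (SD, n = 28) in libraries 1 to 30 and 83.0 ± 7.25 (SD, n = 22) in libraries 31 to 59, a log2 difference of 0.16 (SE 0.0418, adjusted p = 0.00900), and 21 of the 22 later libraries lay above the median of the first set. After adjustment for the share held by the 10 highest genes its adjusted p was 0.0523. Tyrobp had 12.3 ± 2 and 10.6 ± 1.81, a log2 difference of -0.21 (SE 0.0638, adjusted p = 0.0183), with 6 of the 22 later libraries above the median of the first set, and passed in all 50 fits without 1 library. C1qa had 43.9 ± 5.47 and 39.4 ± 6.88, a log2 difference of -0.16 (SE 0.0573, adjusted p = 0.0483), with 5 of the 22 above. The ranges of the sets overlapped for all 3 genes. C1qa sat at the threshold: it passed in only 16 of 50 fits without 1 library, in which its adjusted p ran from 0.00983 to 0.0839, and with edgeR its adjusted p was 0.0670. Without the 4 libraries that share an animal number its adjusted p was 0.0760, while Lcp1 and Tyrobp passed.

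The difference between the sets moved with transcript length. Across the 35 genes, which are not independent replicates, r between the log2 difference and log2 transcript length was 0.573, against 0.413 across 11428 genes of the table. Of the 16 genes shorter than 1.5 kb, 12 were lower in libraries 31 to 59, against 85.5% of all genes of that length, and of the 11 between 1.5 and 3 kb, 8 were lower, against 62.3%. All 8 genes longer than 3 kb were higher, among which 33.9% of all genes of that length were lower. With the length trend removed, Tyrobp (adjusted p = 0.417) and C1qa (adjusted p = 0.407) no longer passed and Lcp1 did (adjusted p = 0.0360). With counted reads as a covariate, Tyrobp had an adjusted p of 0.0756 and C1qa of 0.200. Median counted reads were 1.13e+07 in libraries 1 to 30 and 1.03e+07 in libraries 31 to 59, and the part of depth in these differences cannot be told apart from that of the set.

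**Figure D5:**
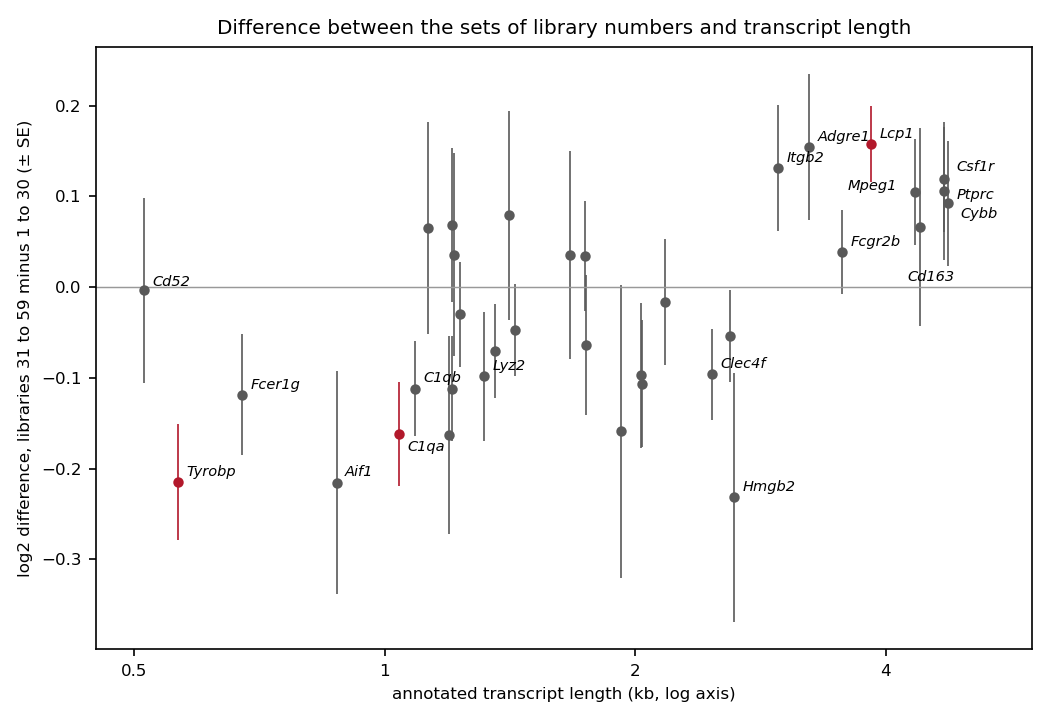
Log2 difference between libraries 31 to 59 and libraries 1 to 30 (y axis, ± SE) against annotated transcript length in kilobases (x axis, log axis) for 35 genes. Red points are C1qa, Tyrobp and Lcp1, which passed the test. All 8 genes longer than 3 kb lie above 0.

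Whether the relation to animal number differed between the sets of library numbers was tested as an interaction. None of the 35 genes passed in limma, beside 5 of 11431 genes tested (0.0437%), and 0 of the 35 had an unadjusted p under 0.05, beside 8.27% of all genes tested. With 1 library left out the 5 genes of the table became 0 (library 32 or 34) to 15 (library 22), with 0 of the 35 in each. edgeR and DESeq2 also called 0 of the 35, and over the whole table they called 1 gene and 28. The interaction estimate for H2-Aa was 0.21 (SE 0.215, adjusted p = 0.826). A difference of slopes between the sets was therefore not detected for these genes.

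Markers of other cells were counted from further lists, beside 7.48% of all genes tested that rose with animal number, 6.76% that fell and 28.98% with an unadjusted p under 0.05. Of 16 further Kupffer cell genes, all were in the table and 0 rose and 2 fell with animal number in limma, with 5 of 16 at an unadjusted p under 0.05, a share close to that of all genes. The 2 were C6, a component of the terminal complement pathway (slope -0.84, adjusted p = 0.00122), and Hpgd, which degrades prostaglandins (slope -0.21, adjusted p = 0.0203). Of 6 MHC class I genes 0 passed in limma, with 1 of 6 at an unadjusted p under 0.05. DESeq2 called B2m, the light chain of class I molecules (adjusted p = 0.0330), and edgeR called 0. Erythroid genes moved with animal number in both directions: the globins Hba-a1 (slope 0.74, adjusted p = 0.000531), Hbb-bs (slope 0.65, adjusted p = 0.00126) and 2 others of 5 tested rose, and Alas2, the first enzyme of haem synthesis in red cells, fell (slope -0.30, adjusted p = 0.00495). The summed erythroid value ran from 94.7 in library 9 to 302 in library 15, with Hbb-bs its most abundant gene. In the endothelial list 2 of 8 rose, Lyve1 and the scavenger receptor Stab1, with 3 of 8 at an unadjusted p under 0.05. In the stellate and fibroblast list 2 of 7 rose, the matrix genes Dcn and Col3a1, with 4 of 7 at that p. Of 6 hepatocyte genes Alb and Cps1 rose and Hnf4a fell, with 4 of 6 at that p, and of 5 proliferation genes tested Mcm2 rose, with 3 of 5. The part of other cells in the slopes of the MHC class II genes was not tested.

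Between the sets of library numbers, 1 gene passed in each of 6 lists. Clec1b of 16 further Kupffer cell genes tested, Plac8 of 2 monocyte genes, Ighm as the single B and plasma cell gene tested and Des of 7 stellate and fibroblast genes were lower in libraries 31 to 59, beside 6.46% of all genes tested. Kdr of 8 endothelial genes and Cps1 of 6 hepatocyte genes were higher, beside 7.30%. Few markers of circulating or recruited leukocytes were in the table. It held 2 of 8 monocyte genes, 1 of 8 neutrophil genes, 4 of 6 B and plasma cell genes, 1 of 8 T and NK cell genes and 2 of 6 dendritic cell genes. A gene missing from the table may have been removed by the authors for low counts, and its absence gives no level. Ighm, the IgM heavy chain, had a mean of 4.85 ± 1.39 (SD, n = 50).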

How the data were processed

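Liver RNA of male mice was sequenced in 50 libraries with a stranded TruSeq kit. After trimming, HISAT2 alignment to GRCm38.p5 and gene counting in HTSeq 0.11.1, genes of 0 or low counts were removed by the authors and edgeR was used for normalization. The deposited values are a normalized signal, CPM of a library size adjusted between libraries, and each is a whole multiple of the value of 1 read (100% of the values within 0.01 reads). Of 12185 entries, 5 are counting categories that name no gene. They held 17.0 to 25.3% of the counted reads (mean 21.3%, with alignments that were not unique at 11.6% of the counted reads) and were left out. Counting intervals and floors cover counting error only, since reads without molecular identifiers are not independent molecules. The 3 reads of the floor are a value of 0.0951 to 0.259.

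Genes whose mean value was 1 or higher were tested on log2(value + 0.5) with limma 3.58.1 (empirical Bayes with a trend, 2-sided) in R 4.3.3, with Benjamini-Hochberg adjustment over 11431 genes and a threshold of 0.05. All libraries form 1 group by their labels, and no genotype was used. Animal number and library number come from the titles, in which 2 animal numbers occur on 2 libraries each. Slopes are per 100 animal numbers. Whole reads were recovered for edgeR 4.0.16 (quasi-likelihood) and DESeq2 1.42.0. Correlations used 100000 permutations, 2-sided, in Python 3.11.15 with numpy 2.4.6, and Benjamini-Hochberg adjustment over the 29 pairs. Transcript length is that of the longest principal transcript in GENCODE M21. The length trend was removed as each library's median deviation in 20 bins of length. The procedures were tested on simulated data.

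The genes and lists were chosen with earlier results of these data known. Every listed gene is accounted for. From the other cell type lists, genes past the threshold were counted and at most 3 per list named, those with the highest mean, and each anchor gene was given its 6 nearest genes. Alternatives were other pseudocounts, filters, scalings, tools, covariates and left-out libraries. Those on transcript length, library 47, library 15, the sets of library numbers taken alone, the 2 libraries farthest in animal number and animal numbers above 270, the spread of each gene with 1 library left out, and all those of the interaction, were chosen after seeing the data. Linkage to chromosomes 4 and 6 was not analysed here.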

Additional observations from a re-analysis of the deposited data

How the results depend on the processing

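The genes called for animal number, 1628 in all and 6 of the listed markers, numbered 1075 and 2 in libraries 1 to 30 alone, 26 and 0 in libraries 31 to 59 alone, where fewer libraries were tested, 901 and 2 without animal numbers above 270, and 0 and 0 after adjustment for the share held by the 10 highest genes. With 1 library left out they ranged from 1281 (library 4) to 1840 (library 31), and the listed markers from 5 to 9. The genes called between the sets of library numbers, 1574 and 3, numbered 856 and 1 with counted reads as a covariate and 907 and 1 with the length trend removed. With 1 library left out they ranged from 1315 (library 18) to 2456 (library 44), and the listed markers from 2 to 3. The interaction called 5 genes. It called 2 with a mean value of at least 5, 2 without the 4 libraries that share an animal number, 1 without library 24, 3 with counted reads as a covariate, 30 after adjustment for the share held by the 10 highest genes, 13 with the length trend removed, 10 without library 15, 18 without animal numbers above 270, 1 with edgeR and 28 with DESeq2. With 1 library left out it ranged from 0 (libraries 32 and 34) to 15 (library 22), with 0 listed markers throughout. Of the gene pairs, 21 passed, against 13 in libraries 31 to 59 alone, where r of H2-Aa and Ciita reversed to -0.0519. The summed level of the listed markers, 915, was 1165 in plain CPM, which divides by the gene reads alone. Where no cause is given, the cause was not tested. Single genes were followed through the alternatives if they were listed markers or had passed in the main fit. They stayed on their side of the threshold in 8279 comparisons of a gene in a setting, newly passed in 12 and no longer passed in the rest. New passes of other genes, such as B2m with DESeq2, are not among the 12. None of the genes followed turned its direction where it passed in either setting. The direction of genes that passed in neither was not counted. The labels give 1 group with no condition to compare within animals, so no paired analysis was made, although 2 animal numbers occur on 2 libraries each. With 1 library left out the summed level ran from 908 (library 47) to 919 (library 29). Of the 36 genes counting error limits Ccl5 most, with 68.1% of its variance and 4 reads at the lowest.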
